A study of Mus musculus with 24 samples.

Results

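Toll-like receptors are the sensors with which macrophages recognise microbial lipids, proteins and nucleic acids, and Cd14 is the surface protein that hands lipopolysaccharide (LPS) to one of them. The transcripts of 9 of these receptors (Tlr1, Tlr2, Tlr3, Tlr4, Tlr6, Tlr7, Tlr8, Tlr9 and Tlr13) and of Cd14 were followed in cultured mouse macrophages given LPS, the glucocorticoid dexamethasone, both or neither. The genes were chosen by symbol and matched to the count table by Ensembl identifier. They are 10 of the 55357 genes in the table, and all 10 passed the filter on low counts that left 14985 genes for testing, with 205 to 64081 read pairs per gene and library.

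Bone marrow-derived macrophages were grown from the femurs and tibias of wild-type C57BL/6J mice aged 8 to 12 weeks, in medium with supernatant of L929 cells as the source of the growth factor M-CSF. No group carries an engineered allele. The groups are LPS plus dexamethasone, LPS alone, dexamethasone alone and untreated cells, each at 24 h and at 4 h, with 3 libraries per group and 24 in all. Dexamethasone was at 100 nM. LPS is given in the labels as 100 ng with no volume, and the labels name no vehicle for the untreated cells. Whether replicates were separate mice, separate dishes or pooled marrow is not stated, so the p-values below measure the spread between these libraries, which may be technical.

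Each receptor has an outer domain of leucine-rich repeats that binds its ligand and an inner TIR domain that recruits the adaptors MyD88 or TRIF, which lead to NF-kB and to interferon regulatory factors. Tlr4, with Cd14 and Ly96, senses LPS, and Tlr2 pairs with Tlr1 or Tlr6 to sense bacterial lipoproteins at the cell surface. The other 5 receptors act in endosomes and belong to the family's sensors of nucleic acids. Tlr3 senses double-stranded RNA, Tlr7 single-stranded RNA and its breakdown products, and Tlr9 DNA with unmethylated CpG motifs. Tlr13, a receptor that mice have and humans lack, senses bacterial ribosomal RNA, and Tlr8 is a relative of Tlr7. Macrophages are known to turn these genes up or down after they meet a ligand, and glucocorticoids to dampen much of the inflammatory programme that the receptors start.

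In the table's coordinates, Tlr1 (chr5:65082022-65090906, minus strand) and Tlr6 (chr5:65109374-65117440, minus strand) are neighbours, and so are Tlr7 (chrX:166087925-166113554, minus strand) and Tlr8 (chrX:166025692-166047325, minus strand). Tlr13 is also on the X chromosome (chrX:105186810-105204099, plus strand). Tlr2 (chr3:83743579-83749074, minus strand), Tlr3 (chr8:45848702-45864117, minus strand), Tlr4 (chr4:66745821-66848521, plus strand), Tlr9 (chr9:106099797-106104082, plus strand) and Cd14 (chr18:36858120-36859851, minus strand) lie apart. The exons of Tlr3 overlap those of one other gene, Gm45542, by 381 bases on the opposite strand, and reads there could not be assigned by strand; Gm45542 itself holds 4 counts over all libraries. The exons of the other members overlap no other gene's. Tlr1 and Tlr6 are close relatives, and reads that fit both equally well were not counted.

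Library totals ranged between 18326206 and 27908164 counted read pairs. The treatment labels were checked with a marker gene each. Il1b, a cytokine gene that LPS induces, lay between 199.6 and 7114 CPM (read pairs scaled to a common library total) in the libraries with LPS and between 0.0425 and 2.19 CPM in those without. Fkbp5, a target of the glucocorticoid receptor, lay between 514 and 1486 CPM in the libraries with dexamethasone and between 7.15 and 52.9 CPM in those without. The summed level of 6 macrophage markers (Csf1r, Adgre1, Cd68, Fcgr1, Lyz2 and Itgam) was 16300 to 51000 CPM. CPM here are scaled by the trimmed mean of M-values (TMM), whose factors were lowest (0.679 to 0.705) in the LPS libraries of 4 h. Scaling by library size alone would move the median log2 fold change of all genes by −0.77 for LPS at 4 h, by −0.20 for LPS at 24 h and by 0.21 for dexamethasone under LPS at 4 h. In those 3 comparisons 19.9%, 32.9% and 71.6% of the calls would then be higher ones, against 46.8%, 49.2% and 48.5% with TMM.

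RefSeq promoter windows (250 bases before to 50 bases after the start site, GRCm38.p6) were at hand for 7 of the 10 genes, in 9 windows. They are shown for 3 of the genes that were higher after 4 h of LPS and for Tlr13, which was lower. Each is read 5′ to 3′ along its own gene's strand. Capitals mark matches to the NF-kB consensus in Tlr2 and Tlr3, to the interferon-stimulated response element core (GAAA, any 2 bases, GAAA) in Tlr6, and to the PU.1 core GAGGAA in Tlr13.
Tlr2: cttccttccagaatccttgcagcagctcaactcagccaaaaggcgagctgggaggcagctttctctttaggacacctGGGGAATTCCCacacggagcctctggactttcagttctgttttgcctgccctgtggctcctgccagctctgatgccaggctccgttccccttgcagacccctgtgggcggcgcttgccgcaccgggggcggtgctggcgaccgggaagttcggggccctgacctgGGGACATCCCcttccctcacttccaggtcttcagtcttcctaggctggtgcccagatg
Tlr3: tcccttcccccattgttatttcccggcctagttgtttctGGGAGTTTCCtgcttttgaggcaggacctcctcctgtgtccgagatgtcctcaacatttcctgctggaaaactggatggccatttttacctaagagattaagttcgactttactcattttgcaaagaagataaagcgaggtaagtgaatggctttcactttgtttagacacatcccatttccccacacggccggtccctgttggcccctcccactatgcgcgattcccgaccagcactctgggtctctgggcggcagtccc
Tlr6: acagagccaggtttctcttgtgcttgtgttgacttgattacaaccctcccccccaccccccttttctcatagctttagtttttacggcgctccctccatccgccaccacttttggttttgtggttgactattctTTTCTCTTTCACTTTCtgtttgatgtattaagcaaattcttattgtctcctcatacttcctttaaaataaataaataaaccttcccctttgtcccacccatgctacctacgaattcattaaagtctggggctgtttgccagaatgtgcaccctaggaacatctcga
Tlr13: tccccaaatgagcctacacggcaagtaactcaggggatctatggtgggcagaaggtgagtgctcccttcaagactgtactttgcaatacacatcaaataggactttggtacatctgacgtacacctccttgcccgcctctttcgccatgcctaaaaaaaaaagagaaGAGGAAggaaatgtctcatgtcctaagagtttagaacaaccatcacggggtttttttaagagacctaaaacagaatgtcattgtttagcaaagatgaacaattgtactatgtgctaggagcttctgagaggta
The windows are Tlr2 at chr3:83841559-83841858, Tlr3 at chr8:45410331-45410630, Tlr6 at chr5:64959117-64959416 (1 of its 2 windows), all on the minus strand, and Tlr13 at chrX:106143025-106143324 on the plus strand. All 4 motifs were searched on both strands. The NF-kB consensus has 3 matches in Tlr2, which start at bases −173, −172 and −8 from the start site, the first 2 of them overlapping, and 1 in Tlr3 at −211; 8.46% of the 32851 promoters in the table hold such a match. The interferon-stimulated response element core occurs at −116 and −110 in Tlr6, as overlapping matches on the opposite strand, and in 3.44% of all promoters. Tlr1 and Tlr8 were also higher after 4 h of LPS, and no window of these genes held a match to either motif. Tlr7 and Cd14, higher as well, had no window to search, and neither had Tlr4. The other window of Tlr6 held no match to any of the 4 motifs. The PU.1 core, a short motif of the macrophage factor PU.1, occurs at −83 in Tlr13, in a window of Tlr1 and in those of Tlr8 and Tlr9, and in 28.3% of all promoters. The glucocorticoid response element (AGAACA, any 3 bases, TGTTC) has no match in the 9 windows and one in 0.0487% of all promoters. A match describes these letters and shows no binding, and the lack of one says nothing of the factor.

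Levels between genes are compared per length, in TPM (read pairs per exon length, scaled to the same total in every library), as mean ± SD of 3 libraries. In untreated cells at 4 h, Tlr13 stood highest among the receptors with 512 ± 32.9 TPM, followed by Tlr7 (121 ± 1.98 TPM), Tlr8 (110.0 ± 4.82 TPM) and Tlr2 (109 ± 7.37 TPM). Tlr3 was lowest there with 8.41 ± 0.652 TPM and Tlr6 next with 14.6 ± 0.202 TPM. Cd14 exceeded them all in that group, at 950.4 ± 59.8 TPM. Tlr13 thus held 48.8% of the summed TPM of the 9 receptors in untreated cells at 4 h.

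The make-up of the receptor transcripts differed between the treatments. After 4 h of LPS, Tlr2 held 53.3 ± 3.15% of the summed receptor TPM, against 10.4 ± 0.564% in untreated cells, and Tlr13 held 1.79 ± 0.287%, against 48.8 ± 1.24% in untreated cells. The 5 endosomal receptors together made up 30.5 ± 2.48% in LPS cells and 75.2 ± 0.390% in untreated cells at 4 h. At 24 h their share was 39.9 ± 0.620% in LPS cells and 71.5 ± 0.905% in untreated cells. With dexamethasone alone it was 80.7 ± 0.541% at 24 h and 88.4 ± 0.771% at 4 h. Under LPS plus dexamethasone it was 43.7 ± 1.85%, against 39.9 ± 0.620% with LPS, at 24 h, and 29.2 ± 2.07%, against 30.5 ± 2.48% with LPS, at 4 h. The summed TPM of the 9 receptors was 1974 ± 54.0 in LPS plus dexamethasone cells, 1612 ± 33.3 in LPS cells, 1682 ± 71.7 in dexamethasone cells and 1047.5 ± 41.6 in untreated cells at 4 h. These shares and sums are descriptions. The shares are not affected by the choice of scaling between libraries. The sums are affected, because TPM was scaled to the same total without TMM factors, so no order of the treatments is drawn from them.

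**Figure D1:**
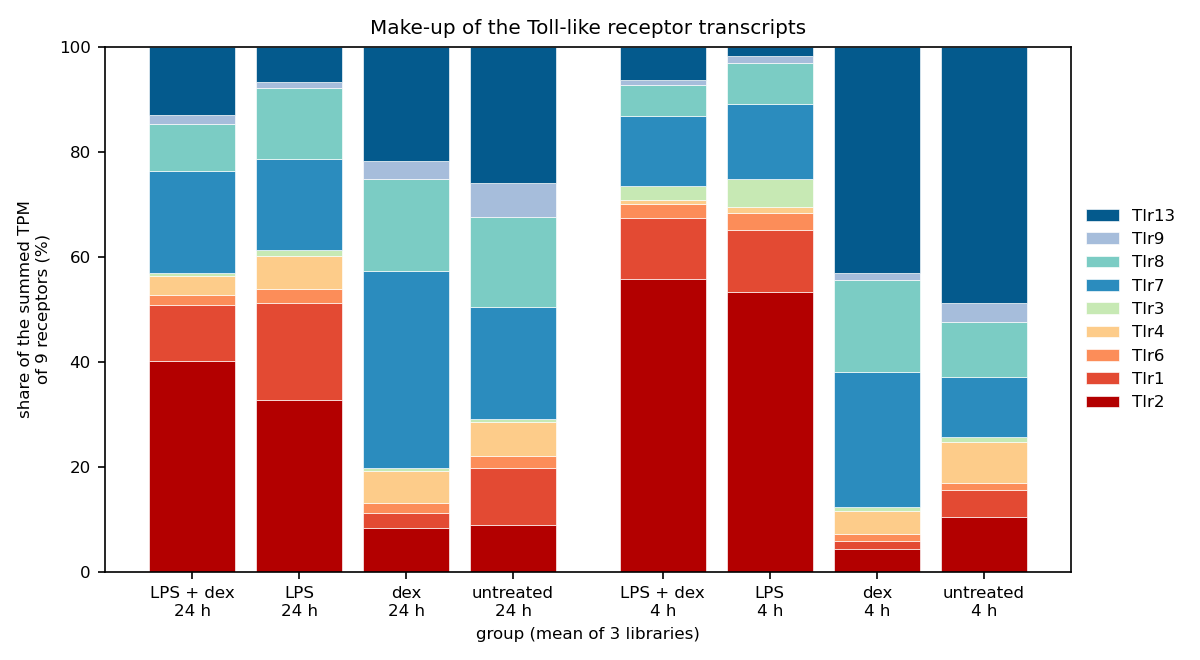
Each bar shows the mean share (%) of 9 Toll-like receptor genes in their summed TPM over 3 libraries, for LPS + dexamethasone (dex), LPS, dexamethasone and untreated cells at 24 h (left) and at 4 h (right). Surface receptors are in red and orange at the bottom and endosomal ones in green and blue at the top, which together make up 30.5% in LPS cells and 75.2% in untreated cells at 4 h.

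After 4 h of LPS, Cd14 and every surface receptor but Tlr4 were higher, Tlr4 was lower, and of the endosomal receptors Tlr3, Tlr7 and Tlr8 were higher and Tlr13 was lower. Thus 7 of the 10 genes were called higher and 2 lower by edgeR's quasi-likelihood test at an adjusted p under 0.05, where 34.2% of all tested genes were called higher and 38.8% lower. The median log2 fold change was 2.21 over the 10 genes and −0.07 over all tested genes. In bulk RNA, a change in the number of cells that express a gene and a change of RNA per cell cannot be told apart.

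Tlr2, the shared partner of the lipoprotein receptors, was at 1193, 1259.9 and 1034.5 CPM in the LPS libraries of 4 h, against 82.5, 75.4 and 86.7 CPM in the untreated libraries. The 2 groups lie more than an order of magnitude apart, and the log2 fold change was 3.83 ± 0.08 (SE; adjusted p = 1.98e-28). Cd14, the LPS carrier, was at 3351, 3354 and 2966 CPM with LPS, against 399.9, 434 and 389 CPM untreated, a log2 fold change of 2.98 ± 0.06 (adjusted p = 6.89e-32). Tlr1, one of the partners of Tlr2, was at 292, 282 and 287 CPM with LPS, against 47.8, 42.6 and 44.1 CPM untreated (log2 fold change 2.68 ± 0.11, adjusted p = 7.93e-16). Tlr6, the other partner, was at 82.2, 83.3 and 84.4 CPM with LPS, against 13.7, 13.6 and 13.3 CPM untreated (log2 fold change 2.62 ± 0.06, adjusted p = 1.43e-29). In none of these 4 genes did the groups overlap. Tlr4, the LPS receptor itself, went the other way, with 44.4, 50.2 and 48.4 CPM in LPS cells, against 115.9, 112 and 109.6 CPM in untreated cells. Every LPS library lay far below every untreated one, and the log2 fold change was −1.24 ± 0.07 (adjusted p = 2.91e-18).

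Of the endosomal receptors, Tlr3 had the largest rise of the 10 genes, with 191.9, 202 and 203 CPM in LPS cells of 4 h, against 10.7, 11.7 and 10.1 CPM in untreated cells. The log2 fold change was 4.20 ± 0.10 (adjusted p = 1.52e-28). Tlr13 had the largest fall, with 49.1, 54.2 and 62.9 CPM in LPS cells, against 587, 509 and 542 CPM in untreated cells, and no library came near those of the other group (log2 fold change −3.30 ± 0.07, adjusted p = 1.7e-31). The RNA sensor Tlr7 was at 409, 427 and 435 CPM with LPS, against 121, 123 and 123 CPM untreated (log2 fold change 1.79 ± 0.07, adjusted p = 4.52e-21). Its neighbour Tlr8 was at 182, 198 and 218 CPM with LPS, against 102, 92.3 and 99.01 CPM untreated (log2 fold change 1.03 ± 0.09, adjusted p = 5.01e-11). In both, each LPS library lay above each untreated one, more narrowly in Tlr8. Over the alternatives in processing, the log2 fold change lay between 1.02 and 1.85 for Tlr7 and between 0.26 and 1.09 for Tlr8. Both genes kept their calls, but the size of the Tlr8 rise depends on the processing. Tlr9, the DNA sensor, averaged 33.5 ± 0.972 CPM in LPS cells and 31.4 ± 0.761 CPM in untreated cells, and was not called (log2 fold change 0.09 ± 0.13, adjusted p = 0.549). With library size alone as the scale, the log2 fold change of Tlr9 was −0.68 (adjusted p = 7.69e-05), so no direction is given for it.

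**Figure D2:**
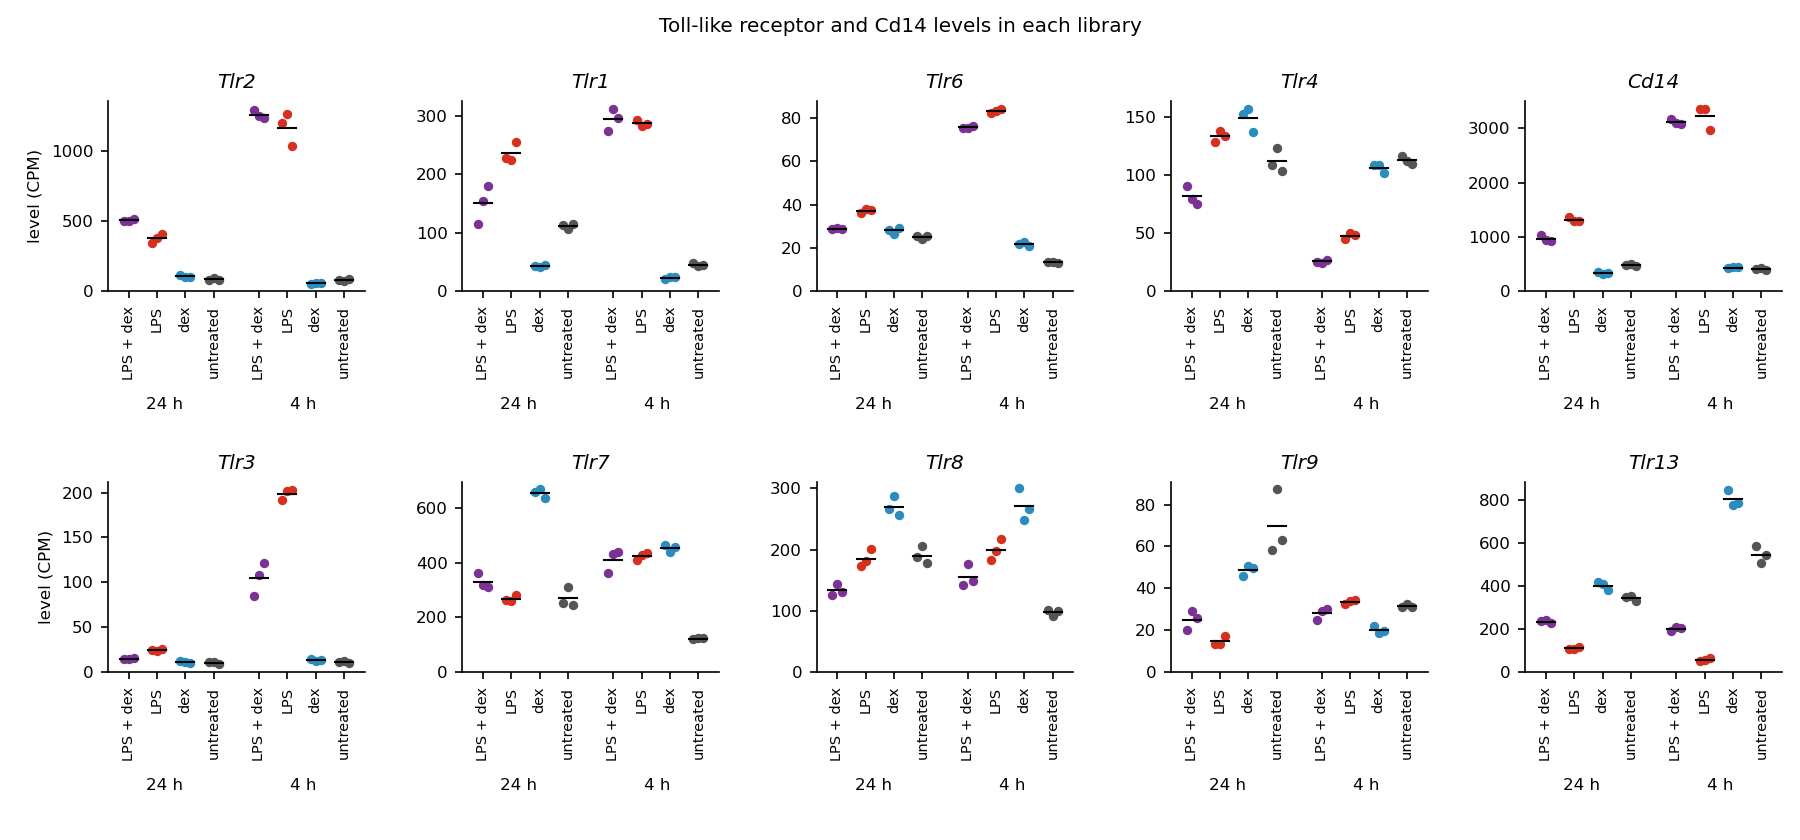
The level (CPM, linear axis from 0, a scale of its own per gene) of Cd14 and 9 Toll-like receptor genes in each library (points) with the mean of 3 libraries (bar), for LPS + dexamethasone (dex), LPS, dexamethasone and untreated cells at 24 h (left) and at 4 h (right). The top row holds the surface genes and the bottom row the endosomal receptors; the highest Tlr3 points are the LPS libraries of 4 h at 191.9 to 203 CPM, and the lowest Tlr13 points are the same libraries at 49.1 to 62.9 CPM.

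After 24 h of LPS, all 5 surface genes were higher than in untreated cells of 24 h, Tlr3 was higher, Tlr9 and Tlr13 were lower, and Tlr7 and Tlr8 were not called. That is 6 of 10 called higher and 2 lower, where 29.7% of all tested genes were called higher and 30.6% lower. The median log2 fold change was 0.41 over the 10 genes and −0.02 over all tested genes.

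Tlr2 was at 344, 379 and 404 CPM in LPS cells of 24 h, against 80.6, 94.0 and 76.3 CPM in untreated cells (log2 fold change 2.17 ± 0.07, adjusted p = 7.56e-22). Cd14 averaged 1314 ± 46.2 CPM with LPS and 479 ± 16.99 CPM untreated (log2 fold change 1.45 ± 0.06, adjusted p = 2.22e-22). Tlr1 averaged 236 ± 16.2 CPM with LPS and 112 ± 4.62 CPM untreated (log2 fold change 1.08 ± 0.10, adjusted p = 3.88e-09). These genes were thus still above untreated levels, with no overlap between libraries. Tlr6 averaged 37.1 ± 0.863 CPM with LPS and 25.1 ± 0.771 CPM untreated, a log2 fold change of 0.56 ± 0.06 (adjusted p = 3.55e-10). Tlr4 was at 128, 138 and 133 CPM with LPS, against 109, 123 and 103 CPM untreated. Its libraries did not overlap but lay close, and the log2 fold change of 0.25 ± 0.06 (adjusted p = 0.00108) was 0.05 (adjusted p = 0.492) with library size alone as the scale.

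Among the endosomal receptors at 24 h, Tlr3 averaged 24.5 ± 0.975 CPM with LPS and 10.3 ± 1.00 CPM untreated (log2 fold change 1.25 ± 0.10, adjusted p = 1.73e-12). Tlr13 was at 109, 106 and 118 CPM with LPS, against 348, 352 and 332 CPM untreated, well apart (log2 fold change −1.63 ± 0.06, adjusted p = 1.61e-22). Tlr9 was at 13.5, 13.3 and 17.3 CPM with LPS, against 58.2, 87.3 and 63.2 CPM untreated. The untreated libraries spread widely, yet the lowest of them is over 3 times the highest LPS library, and the log2 fold change was −2.24 ± 0.14 (adjusted p = 1.4e-12). Tlr7 averaged 269 ± 11.5 CPM with LPS and 270.5 ± 34.4 CPM untreated (log2 fold change −0.01 ± 0.07, adjusted p = 0.911). Tlr8 averaged 185 ± 14.1 CPM with LPS and 190.2 ± 14.2 CPM untreated (log2 fold change −0.04 ± 0.08, adjusted p = 0.719). The libraries of Tlr7 and Tlr8 overlapped; with library size alone as the scale both were called lower, at −0.21 (adjusted p = 0.00547) and −0.24 (adjusted p = 0.0188).

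The LPS effect at 24 h minus that at 4 h was tested as an interaction, and all 10 genes passed, 2 higher and 8 lower, where 30.8% of all tested genes were called higher and 30.5% lower. Tlr4 had the opposite sign at the 2 times, 0.25 at 24 h and −1.24 at 4 h, and the difference was 1.49 ± 0.10 (adjusted p = 3.33e-16). Tlr13 was lower at both times and less so at 24 h (difference 1.67 ± 0.09, adjusted p = 3.74e-18). Tlr3 had the largest difference in the other direction, −2.95 ± 0.14 (adjusted p = 1.09e-18), followed by Tlr9 with −2.34 ± 0.19 (adjusted p = 3.02e-10). The comparisons of LPS and of dexamethasone with untreated cells share the untreated libraries of each time.

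Dexamethasone alone for 4 h raised Tlr7, Tlr8, Tlr6, Tlr13 and Tlr3, and lowered Tlr1, Tlr2 and Tlr9, while Tlr4 and Cd14 were not called. That is 5 of 10 called higher and 3 lower, where 17.6% of all tested genes were called higher and 23.7% lower. Tlr7 was at 465, 441 and 457 CPM in dexamethasone cells, against 121, 123 and 123 CPM in untreated cells (log2 fold change 1.89 ± 0.07, adjusted p = 1.11e-20). Tlr8 was at 301, 248.8 and 266 CPM in dexamethasone cells, against 102, 92.3 and 99.01 CPM untreated (log2 fold change 1.48 ± 0.09, adjusted p = 1.6e-13). Both genes stood well clear of the untreated libraries. Tlr13 averaged 802 ± 37.1 CPM with dexamethasone and 546 ± 39.4 CPM untreated (log2 fold change 0.56 ± 0.06, adjusted p = 1.18e-09). Tlr6 averaged 21.8 ± 0.860 CPM with dexamethasone and 13.5 ± 0.228 CPM untreated (log2 fold change 0.69 ± 0.07, adjusted p = 6.12e-11). Tlr3 averaged 13.5 ± 0.945 CPM with dexamethasone and 10.8 ± 0.802 CPM untreated, and its call (log2 fold change 0.32 ± 0.11, adjusted p = 0.0188) was lost without untreated replicate 1 (adjusted p = 0.0575), without untreated replicate 3 (adjusted p = 0.0737) and without dexamethasone replicate 1 (adjusted p = 0.0926).

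Tlr1 was at 21.1, 24.3 and 24.5 CPM after 4 h of dexamethasone, against 47.8, 42.6 and 44.1 CPM in untreated cells, without overlap (log2 fold change −0.94 ± 0.12, adjusted p = 7.43e-07). Tlr2 averaged 55.0 ± 2.37 CPM with dexamethasone and 81.5 ± 5.68 CPM untreated (log2 fold change −0.57 ± 0.08, adjusted p = 2.46e-07). Tlr9 averaged 19.97 ± 1.67 CPM with dexamethasone and 31.4 ± 0.761 CPM untreated (log2 fold change −0.66 ± 0.14, adjusted p = 0.000434). Tlr1 and Tlr6, which each pair with Tlr2, thus moved in opposite directions. For Tlr4 the means were 106 ± 3.93 CPM with dexamethasone and 113 ± 3.19 CPM untreated (adjusted p = 0.315), and for Cd14 they were 436 ± 14.1 CPM with dexamethasone and 408 ± 23.8 CPM untreated (adjusted p = 0.181). Cd14 was called higher, with a log2 fold change of 0.14, when only these groups were fitted (adjusted p = 0.00444).

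After 24 h of dexamethasone alone, Tlr7, Tlr8, Tlr4, Tlr2, Tlr13 and Tlr6 were higher, Tlr1, Cd14 and Tlr9 were lower, and Tlr3 was not called. That is 6 of 10 called higher and 3 lower, where 21.9% of all tested genes were called higher and 26.5% lower. Tlr7 was at 659.6, 669.9 and 639 CPM in dexamethasone cells, against 255, 310.1 and 247 CPM in untreated cells (log2 fold change 1.28 ± 0.07, adjusted p = 1.29e-16). The dexamethasone libraries of 24 h were the highest of all 8 groups for this gene. Tlr8 averaged 269.9 ± 15.8 CPM with dexamethasone and 190.2 ± 14.2 CPM untreated (log2 fold change 0.50 ± 0.08, adjusted p = 1.51e-05). Tlr4 was at 152, 157 and 137 CPM with dexamethasone, against 109, 123 and 103 CPM untreated, without overlap (log2 fold change 0.41 ± 0.06, adjusted p = 1.58e-06). Tlr2 averaged 106 ± 7.40 CPM with dexamethasone and 83.6 ± 9.24 CPM untreated (log2 fold change 0.35 ± 0.07, adjusted p = 0.000215). The changes of Tlr13 (402 ± 18.9 CPM with dexamethasone and 344 ± 10.8 CPM untreated, adjusted p = 0.00254) and Tlr6 (28.1 ± 1.32 CPM with dexamethasone and 25.1 ± 0.771 CPM untreated, adjusted p = 0.0286) were smaller, with log2 fold changes of 0.22 and 0.16. The Tlr6 call was lost in 4 of the 6 fits that left out one of these libraries, without untreated replicate 2 or 3 (adjusted p = 0.128 and 0.056) and without dexamethasone replicate 1 or 3 (adjusted p = 0.0768 and 0.128).

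Tlr1 was at 42.2, 42.1 and 44.7 CPM after 24 h of dexamethasone, against 112, 107 and 116 CPM in untreated cells, lower in every library (log2 fold change −1.37 ± 0.11, adjusted p = 3.95e-10). Cd14 was at 354, 309.6 and 332 CPM with dexamethasone, against 485, 493 and 460.3 CPM untreated (log2 fold change −0.53 ± 0.06, adjusted p = 5.8e-10). Tlr9 averaged 48.9 ± 2.63 CPM with dexamethasone and 69.5 ± 15.5 CPM untreated (log2 fold change −0.51 ± 0.12, adjusted p = 0.00151); the untreated mean rests partly on replicate 2 at 87.3 CPM. Tlr3 averaged 11.5 ± 0.912 CPM with dexamethasone and 10.3 ± 1.00 CPM untreated (adjusted p = 0.271).

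The effect of dexamethasone alone differed between 24 h and 4 h in 8 of the 10 genes, 2 higher and 6 lower at 24 h, where 13.8% of all tested genes were called higher and 16.8% lower. Among the genes called at both times, Tlr2 was the one with opposite signs, with 0.35 at 24 h and −0.57 at 4 h (difference 0.91 ± 0.11, adjusted p = 3.76e-08). The log2 fold changes of Tlr8 and Tlr7 were smaller at 24 h, with differences of −0.97 ± 0.12 (adjusted p = 4.62e-07) and −0.62 ± 0.10 (adjusted p = 7.14e-06). In the same contrast Cd14 gave −0.63 ± 0.08 (adjusted p = 9.25e-08) and Tlr1 −0.43 ± 0.16 (adjusted p = 0.0432). The Tlr1 difference was lost in 9 of the 12 fits that left out one library, with adjusted p up to 0.102.

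**Figure D3:**
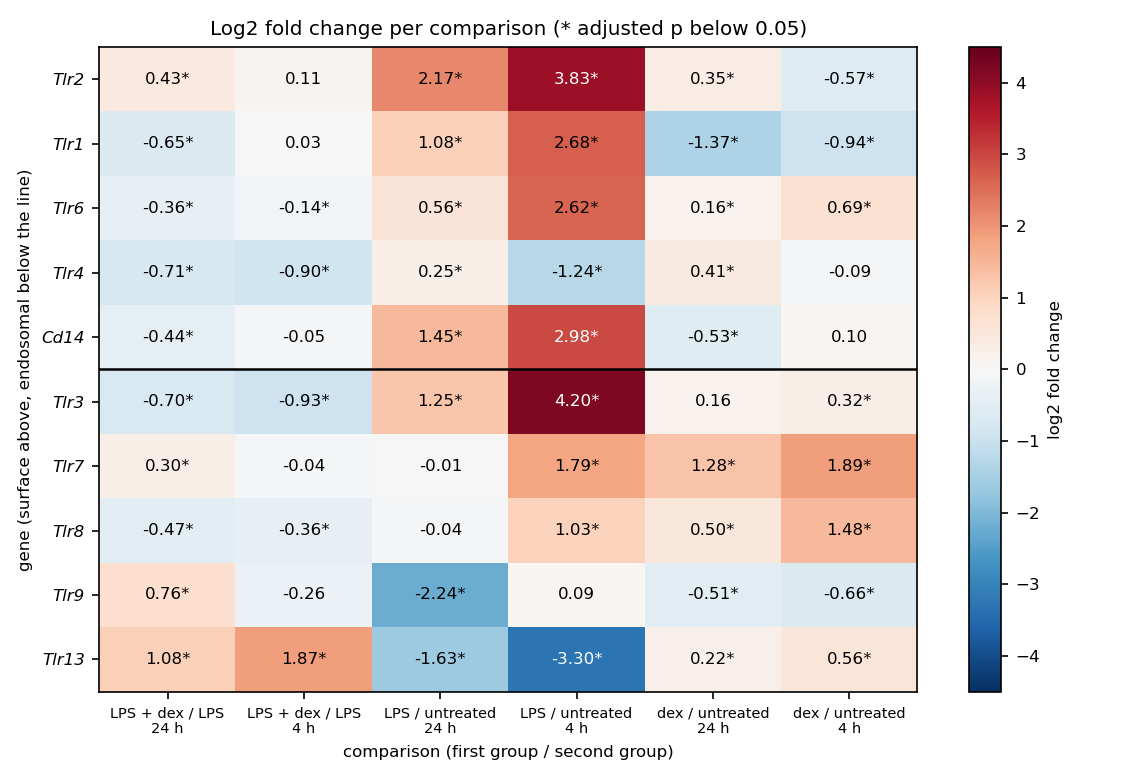
Log2 fold changes (colour and number) of 10 genes (rows, surface genes above the line and endosomal ones below) in 6 comparisons (columns, the group named first over the one named second), with an asterisk where the adjusted p was under 0.05. The column of LPS over untreated cells at 4 h holds the widest range, between −3.30 for Tlr13 and 4.20 for Tlr3.

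Dexamethasone given with LPS for 4 h left Cd14, Tlr1, Tlr2, Tlr7 and Tlr9 uncalled against LPS alone, raised Tlr13 and lowered Tlr3, Tlr4, Tlr8 and, by a small margin, Tlr6. That is 1 of 10 called higher and 4 lower, where 23.9% of all tested genes were called higher and 25.4% lower. Tlr13 was at 193, 207 and 206 CPM with LPS plus dexamethasone, against 49.1, 54.2 and 62.9 CPM with LPS (log2 fold change 1.87 ± 0.07, adjusted p = 7.04e-23). Every library with dexamethasone held over 3 times the level of every library with LPS alone, while all 3 lay below the untreated libraries at 509 to 587 CPM. Tlr3 was at 84.2, 108 and 122 CPM with LPS plus dexamethasone, against 191.9, 202 and 203 CPM with LPS, apart from them though the first group spread widely (log2 fold change −0.93 ± 0.08, adjusted p = 9.51e-12). Tlr4 was at 24.99, 24.5 and 27.2 CPM with LPS plus dexamethasone, against 44.4, 50.2 and 48.4 CPM with LPS (log2 fold change −0.90 ± 0.08, adjusted p = 2.87e-12). The LPS plus dexamethasone cells of 4 h held the lowest Tlr4 level of the 8 groups.

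Tlr8 averaged 156 ± 18.5 CPM with LPS plus dexamethasone and 199.4 ± 17.6 CPM with LPS at 4 h (log2 fold change −0.36 ± 0.09, adjusted p = 0.00105). Tlr6 averaged 75.7 ± 0.428 CPM with LPS plus dexamethasone and 83.3 ± 1.13 CPM with LPS; its call (log2 fold change −0.14 ± 0.06, adjusted p = 0.0397) was lost in each of the 6 fits that left out a library of either group, with adjusted p between 0.058 and 0.101. Tlr2 averaged 1256.5 ± 31.7 CPM with LPS plus dexamethasone and 1163 ± 116 CPM with LPS (log2 fold change 0.11 ± 0.07, adjusted p = 0.188). Cd14 averaged 3115 ± 54.4 CPM with LPS plus dexamethasone and 3223 ± 223 CPM with LPS (log2 fold change −0.05 ± 0.06, adjusted p = 0.494). The libraries of Tlr2 and Cd14 overlapped between the groups. Tlr1 averaged 294 ± 18.4 CPM with LPS plus dexamethasone and 287 ± 5.09 CPM with LPS, and Tlr7 averaged 411 ± 41.3 CPM with LPS plus dexamethasone and 424 ± 13.1 CPM with LPS (adjusted p = 0.805 and 0.64). Tlr9 averaged 28 ± 2.72 CPM with LPS plus dexamethasone and 33.5 ± 0.972 CPM with LPS (log2 fold change −0.26 ± 0.14, adjusted p = 0.128). Without a filter on low counts, Tlr2 was called higher (0.14, adjusted p = 0.0406) and Tlr9 lower (−0.24, adjusted p = 0.0435). The scale matters in this comparison: with library size alone, Tlr1 (0.26), Tlr2 (0.34), Tlr7 (0.18) and Cd14 (0.17) were called higher beside Tlr13, Tlr8 (−0.14) and Tlr6 (0.08) were not called, and Tlr3 and Tlr4 were called lower.

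At 24 h, dexamethasone given with LPS changed all 10 genes against LPS alone, 4 higher (Tlr13, Tlr9, Tlr2 and Tlr7) and 6 lower (Tlr4, Tlr3, Tlr1, Tlr8, Cd14 and Tlr6), where 21% of all tested genes were called higher and 22.6% lower. Tlr13 was at 236, 239 and 227 CPM with LPS plus dexamethasone, against 109, 106 and 118 CPM with LPS, without overlap (log2 fold change 1.08 ± 0.06, adjusted p = 1.08e-16). Tlr9 was at 19.9, 29.2 and 25.8 CPM with LPS plus dexamethasone, against 13.5, 13.3 and 17.3 CPM with LPS, higher in every library although replicate 1 lay close to the highest LPS library (log2 fold change 0.76 ± 0.15, adjusted p = 0.000178). Tlr2 was at 502, 501 and 513 CPM with LPS plus dexamethasone, against 344, 379 and 404 CPM with LPS, without overlap (log2 fold change 0.43 ± 0.07, adjusted p = 6.4e-06). Tlr7 averaged 329.8 ± 27.2 CPM with LPS plus dexamethasone and 269 ± 11.5 CPM with LPS (log2 fold change 0.30 ± 0.07, adjusted p = 0.000651).

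Tlr4 was at 90.2, 79.6 and 74.8 CPM with LPS plus dexamethasone at 24 h, against 128, 138 and 133 CPM with LPS, clearly apart (log2 fold change −0.71 ± 0.07, adjusted p = 2.73e-11). Tlr1 was at 116, 154 and 180.1 CPM with LPS plus dexamethasone, against 229, 225 and 255 CPM with LPS. The 3 libraries with dexamethasone spread widely, and all lay below those with LPS alone (log2 fold change −0.65 ± 0.10, adjusted p = 1.21e-05). Tlr3 averaged 15.1 ± 0.691 CPM with LPS plus dexamethasone and 24.5 ± 0.975 CPM with LPS (log2 fold change −0.70 ± 0.10, adjusted p = 6.67e-07). Tlr8 averaged 133 ± 9.50 CPM with LPS plus dexamethasone and 185 ± 14.1 CPM with LPS (log2 fold change −0.47 ± 0.09, adjusted p = 5.37e-05). The LPS carrier Cd14 was at 1044, 934 and 928 CPM with LPS plus dexamethasone, against 1367, 1288 and 1286 CPM with LPS (log2 fold change −0.44 ± 0.06, adjusted p = 3.51e-08). Tlr6 averaged 28.9 ± 0.188 CPM with LPS plus dexamethasone and 37.1 ± 0.863 CPM with LPS (log2 fold change −0.36 ± 0.06, adjusted p = 7.16e-06). At 24 h Tlr1 and Tlr2, which act as a pair, thus moved in opposite directions under dexamethasone, both with LPS and without it.

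The dexamethasone effect under LPS differed between 24 h and 4 h in 7 of the 10 genes, 3 higher and 4 lower at 24 h, where 19% of all tested genes were called higher and 19.8% lower. Tlr9 had the largest difference, 1.03 ± 0.20 (adjusted p = 0.000283). Tlr13 was raised at both times, less so at 24 h (−0.79 ± 0.09, adjusted p = 7.46e-09). Tlr1 gave −0.69 ± 0.14 (adjusted p = 0.000423) and Cd14 −0.39 ± 0.08 (adjusted p = 0.000132), both uncalled at 4 h and lower at 24 h. Tlr2 (0.32 ± 0.10, adjusted p = 0.0106) and Tlr7 (0.34 ± 0.10, adjusted p = 0.00559) lost their calls with library size alone as the scale (adjusted p = 0.279 and 0.183). Tlr6 (−0.22 ± 0.08, adjusted p = 0.0322) lost its call with DESeq2, with DESeq2's size factors and with either other filter on low counts. For Tlr3, Tlr4 and Tlr8 no difference between the times was called (adjusted p = 0.178, 0.141 and 0.494). Without LPS plus dexamethasone replicate 3 of 4 h, Tlr3 was called with 0.35, against 0.23 with all libraries (adjusted p = 0.021). With library size alone as the scale, Tlr8 was called with −0.30 (adjusted p = 0.0494).

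The effect of dexamethasone with LPS minus that without LPS was called in 8 of the 10 genes at each time. At 24 h, 3 were higher and 5 lower, where 20.5% of all tested genes were called higher and 17.7% lower. At 4 h, 3 were again higher and 5 lower, where 20.8% of all tested genes were called higher and 17.9% lower. Tlr7 gave −0.98 ± 0.10 at 24 h (adjusted p = 4.91e-10) and −1.94 ± 0.10 at 4 h (adjusted p = 8.63e-17); at 4 h it was called higher with dexamethasone alone and not called under LPS. Tlr8 gave −0.98 ± 0.12 at 24 h (adjusted p = 2.34e-07) and −1.83 ± 0.12 at 4 h (adjusted p = 3.81e-12), with a rise by dexamethasone in the absence of LPS and a fall in its presence at both times. Its fall at 4 h was not called by edgeR with library size alone as the scale (−0.14, adjusted p = 0.188). Tlr4 gave −1.12 ± 0.09 at 24 h (adjusted p = 1.71e-12) and −0.81 ± 0.10 at 4 h (adjusted p = 3.03e-08). In Tlr13 the log2 fold change with dexamethasone was larger with LPS than without it. The difference was 0.86 ± 0.09 at 24 h (adjusted p = 3.54e-10) and 1.31 ± 0.09 at 4 h (adjusted p = 1.8e-14). For Cd14 the difference was called at neither time (adjusted p = 0.398 at 24 h and 0.152 at 4 h). At 4 h it was called without LPS replicate 3, with −0.20 (adjusted p = 0.0443), and with the stricter filter, with −0.19 (adjusted p = 0.0397). Tlr9, not called at 4 h (0.39, adjusted p = 0.118), was called in 3 alternatives, with 0.63 by library size alone (adjusted p = 0.0111), 0.42 without a filter (adjusted p = 0.00835) and 0.41 in a fit of only these groups (adjusted p = 0.0116).

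**Figure D4:**
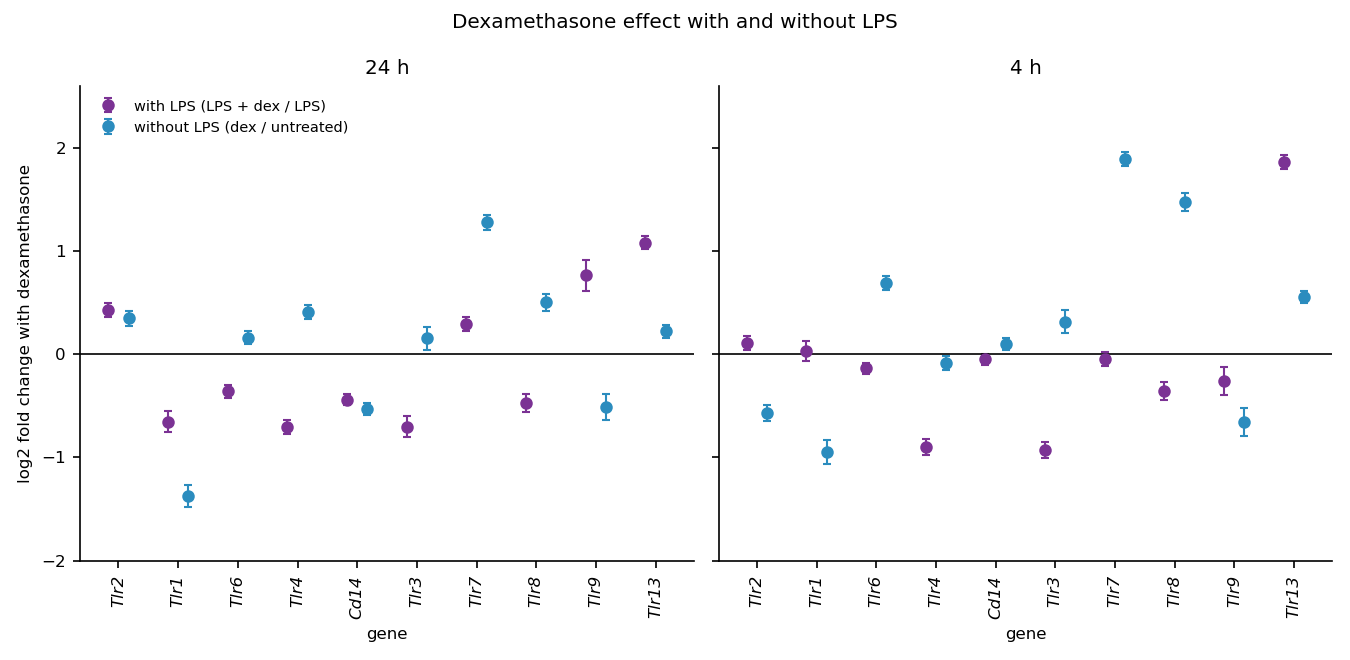
Log2 fold change by dexamethasone (points, with SE bars) with LPS (purple, LPS + dexamethasone over LPS) and without LPS (blue, dexamethasone over untreated) for 10 genes at 24 h (left) and 4 h (right). Tlr7 and Tlr8 lie at 1.89 and 1.48 without LPS at 4 h and at −0.04 and −0.36 with it, and Tlr13 lies above 0 in all 4 comparisons.

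In untreated cells the genes also differed between 24 h and 4 h of culture, 6 higher and 1 lower at 24 h, where 30.6% of all tested genes were called higher and 30.4% lower. Tlr1 averaged 112 ± 4.62 CPM at 24 h and 44.8 ± 2.68 CPM at 4 h (log2 fold change 1.31 ± 0.11, adjusted p = 5.3e-10). Tlr7 averaged 270.5 ± 34.4 CPM at 24 h and 122 ± 1.06 CPM at 4 h (log2 fold change 1.15 ± 0.07, adjusted p = 2.43e-15). Tlr9 averaged 69.5 ± 15.5 CPM at 24 h and 31.4 ± 0.761 CPM at 4 h (log2 fold change 1.15 ± 0.13, adjusted p = 4.96e-08). Tlr8, Tlr6 and Cd14 were higher at 24 h by 0.96, 0.89 and 0.23 on the log2 scale (adjusted p = 3.88e-10, 3.06e-14 and 0.000553), and Tlr13 was lower, with −0.67 ± 0.06 (adjusted p = 9.01e-12). Tlr2, Tlr3 and Tlr4 were not called and their libraries overlapped. A fold change against untreated cells at 24 h is therefore set against another level than at 4 h, and Tlr7 in LPS cells, for instance, averaged 269 ± 11.5 CPM at 24 h and 424 ± 13.1 CPM at 4 h.

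Over the 8 groups, the ratio of the highest to the lowest group mean in CPM was 22.8 for Tlr2, 19.3 for Tlr3, 14.5 for Tlr13, 12.6 for Tlr1, 9.72 for Cd14, 6.17 for Tlr6, 5.82 for Tlr4, 5.36 for Tlr7, 4.73 for Tlr9 and 2.78 for Tlr8. Tlr2, Tlr1, Cd14, Tlr6 and Tlr3 were highest in the LPS groups of 4 h, with or without dexamethasone. The top places of Tlr2, Tlr1 and Cd14 went to LPS plus dexamethasone and LPS cells of 4 h with overlapping libraries, so these 2 groups have no order there, whereas for Tlr3 and Tlr6 LPS cells were above LPS plus dexamethasone cells without overlap. Tlr7 was highest in dexamethasone cells of 24 h and lowest in untreated cells of 4 h, Tlr8 was highest in both dexamethasone groups, which overlapped, and Tlr13 was highest in dexamethasone cells of 4 h and lowest in LPS cells of 4 h. For Tlr13 no neighbours in the order of the 8 groups overlapped. Tlr4 was highest in dexamethasone cells of 24 h, which overlapped with LPS cells of 24 h, and its untreated groups and the dexamethasone group of 4 h could not be put in order. Tlr9 was highest in untreated cells of 24 h and lowest in LPS cells of 24 h. Between those ends, the LPS plus dexamethasone groups of both times and the dexamethasone group of 4 h overlapped with their neighbours.

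The 2 genes whose levels followed each member most closely over the 24 libraries were taken from 9454 genes above 5 CPM, by Pearson's r of log2 CPM, as a description. The libraries fall into 8 treatment groups, so r mostly reflects differences between groups. For Tlr2 these were Ube2f (r = 0.993) and Cers6 (0.989), for Cd14 Parp9 (0.994) and Abracl (0.99), for Tlr6 Tnfrsf1b (0.992) and Casp4 (0.983), and for Tlr3 Whamm (0.994) and Etnk1 (0.992). Tlr1 was followed by Slc11a2 (0.968) and Rgl1 (0.965), Tlr4 by Cds2 (0.968) and Nadk2 (0.96), and Tlr13 by Etaa1 (0.965) and Add3 (0.964). Tlr7 and Tlr8 shared their closest gene, the IgG receptor gene Fcgr3, with r = 0.95 and 0.899. Next came Dram2 (0.923) for Tlr7 and Zscan29 (0.802) for Tlr8. Fcgr3 averaged 930.5 ± 60.8 CPM in dexamethasone cells and 541 ± 13.1 CPM in untreated cells at 24 h, and 700.3 ± 17.5 CPM in dexamethasone cells and 270.1 ± 16.5 CPM in untreated cells at 4 h. Tlr9 was followed by Ighm (0.933), which encodes the constant region of the IgM heavy chain, and by Slc15a4 (0.914), which encodes an endolysosomal transporter. Ighm averaged 0.820 ± 0.624 CPM in LPS cells and 136 ± 9.93 CPM in untreated cells at 24 h.

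Markers of other cells that marrow cultures can hold were summed beside these results. The 5 B cell markers, 1 of which passed the filter, summed to between 0.416 and 3.88 CPM in the 24 libraries. At 24 h, where Tlr9 was lower with LPS, they summed to 1.77 to 2.13 CPM in LPS cells and to 3.08 to 3.83 CPM in untreated cells. The 4 plasmacytoid dendritic cell markers summed to between 69.7 and 833 CPM, most of it Bst2, and Siglech, Ccr9 and Ly6d together averaged 15.1 ± 3.45 CPM in LPS cells and 4.49 ± 0.753 CPM in untreated cells at 4 h. The conventional dendritic cell list reached 15.3 to 15.8 CPM in dexamethasone cells of 4 h, against 1.75 to 2.59 CPM in untreated cells, almost all of it Flt3 (15.1 ± 0.230 CPM with dexamethasone). The stromal and endothelial list reached 102.5 to 143 CPM in LPS cells of 4 h, against 14.4 to 21.04 CPM in untreated cells, mostly Kdr (120.2 ± 22.6 CPM with LPS), while the fibroblast genes Col1a1 and Col1a2 averaged at most 0.274 and 0.166 CPM in any group. Neutrophil markers summed to 0.851 to 1.10 CPM at 24 h and to 6.81 to 14.1 CPM at 4 h in untreated cells, T and NK cell markers to at most 1.22 CPM, and mast cell and basophil markers to at most 3.45 CPM with Tpsb2 at 0 throughout. The macrophage markers themselves summed to 47010 to 50960 CPM in LPS cells and to 21460 to 23630 CPM in untreated cells at 24 h. Most of that sum was Lyz2 (39727 ± 2185 CPM with LPS and 16237 ± 817 CPM untreated), while Cd68 was at 345 ± 22.4 CPM with LPS and 1185 ± 45.3 CPM untreated. The part of such cells in the receptor results was not tested.

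Of the other Toll-like receptor genes of the mouse, Tlr11 and Tlr12 were below the filter, with at most 15 counts in a library. Tlr5, the flagellin receptor, passed it and was higher with dexamethasone. It was at 46.4, 43.4 and 37.1 CPM after 4 h of dexamethasone alone, against 1.81, 1.34 and 3.41 CPM in untreated cells, far apart (log2 fold change 4.29 ± 0.20, adjusted p = 5.16e-18). At 24 h it averaged 7.02 ± 0.690 CPM with dexamethasone and 0.774 ± 0.164 CPM untreated (log2 fold change 3.18 ± 0.27, adjusted p = 9.09e-12). With LPS plus dexamethasone at 24 h its libraries held 144, 168 and 155 counts, against 2, 0 and 2 counts with LPS (adjusted p = 1.14e-14). LPS alone lowered it at 4 h, to 0, 8 and 5 counts, against 58, 29 and 74 counts in untreated cells (adjusted p = 2.11e-07), and under LPS at 4 h dexamethasone gave no call, with 7, 10 and 10 counts for LPS plus dexamethasone and 0, 8 and 5 counts for LPS.

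Further genes of the pathway were counted from lists that were chosen with earlier results of these data known. Of 5 tested surface accessory genes, 3 were higher and 1 lower after 4 h of LPS, where 34.2% of all tested genes were higher and 38.8% lower. After 24 h 0 were higher and 3 lower, where 29.7% of all tested genes were higher and 30.6% lower. Ly96, the co-receptor that binds LPS with Tlr4, averaged 23.5 ± 0.722 CPM in LPS cells and 7.69 ± 0.201 CPM in untreated cells at 4 h (log2 fold change 1.61). Cd180, a receptor relative that restrains Tlr4, fell with dexamethasone alone to 65.8 ± 3.41 CPM, against 352 ± 10.7 CPM in untreated cells, at 4 h (log2 fold change −2.42), and under LPS to 67.9 ± 1.78 CPM, against 291 ± 8.56 CPM with LPS (log2 fold change −2.10). Cd36, a scavenger receptor that assists Tlr2 with Tlr6, averaged 12.97 ± 3.32 CPM with LPS plus dexamethasone and 172 ± 15.1 CPM with LPS at 24 h (log2 fold change −3.73). All these passed the test across all genes.

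Of 10 endosomal trafficking and processing genes, 2 were higher and 7 lower after 24 h of LPS, where the shares over all tested genes were 29.7% and 30.6%. After 4 h 4 were higher and 4 lower, which is near the shares of 34.2% and 38.8% over all tested genes. Unc93b1, the chaperone that carries nucleic acid receptors to endosomes, averaged 899.7 ± 30.2 CPM with LPS and 595 ± 18.2 CPM untreated at 4 h (log2 fold change 0.60). Lgmn, one of the endosomal proteases that process such receptors, averaged 347 ± 11.1 CPM with LPS and 1389 ± 36.0 CPM untreated at 24 h (log2 fold change −2.0). Slc15a4 averaged 59.2 ± 3.55 CPM with LPS plus dexamethasone and 42.7 ± 2.39 CPM with LPS at 24 h (log2 fold change 0.47). More of its list went the other way there, with 3 of the 10 genes higher and 6 lower, where the shares over all tested genes were 21% and 22.6%. In the same comparison at 4 h 3 were higher and 5 lower, where the shares were 23.9% and 25.4%. In untreated cells 8 of the 10 genes were higher and 1 was lower at 24 h than at 4 h, where the shares over all tested genes were 30.6% and 30.4%.

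Of 19 genes for adaptors, kinases and ligases, 13 were higher and 5 lower after 4 h of LPS, where the shares over all tested genes were 34.2% and 38.8%. The largest rises were those of Irf7, at 1442.5 ± 44.2 CPM with LPS and 43.1 ± 3.81 CPM untreated (log2 fold change 5.06), and of the kinase gene Ikbke (log2 fold change 4.28). Under LPS, dexamethasone lowered Irf7 to 309 ± 7.61 CPM, against 1096 ± 9.14 CPM with LPS, at 24 h (log2 fold change −1.83) and to 785 ± 100.2 CPM, against 1442.5 ± 44.2 CPM with LPS, at 4 h (log2 fold change −0.88). The list as a whole did not fall: 4 of the 19 genes were higher and 5 lower at 24 h, where the shares over all tested genes were 21% and 22.6%. At 4 h 9 were higher and 7 lower, where the shares were 23.9% and 25.4%. Of 10 brakes on signalling, 6 were higher and 3 lower after 4 h of LPS, where 34.2% of all tested genes were higher and 38.8% lower. Socs1 (log2 fold change 7.28) and Tnfaip3 (6.90) were at the top. Irak3, a kinase-dead inhibitor of the adaptor complex, averaged 571 ± 30.8 CPM with LPS plus dexamethasone and 318 ± 16.8 CPM with LPS at 4 h (log2 fold change 0.85). Socs1 averaged 74.0 ± 9.48 CPM with LPS plus dexamethasone and 227 ± 24.7 CPM with LPS at that time (log2 fold change −1.61). Of the 10 brakes, 4 were higher and 2 lower with dexamethasone under LPS at 24 h, where the shares over all tested genes were 21% and 22.6%, and 4 were higher and 4 lower at 4 h, where they were 23.9% and 25.4%. With dexamethasone alone, 3 were higher and 2 lower at 24 h (21.9% and 26.5% of all tested genes), and 4 were higher and 2 lower at 4 h (17.6% and 23.7%).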

How the data were processed

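Macrophage RNA was sequenced as read pairs in 24 libraries. The authors' deposited table holds raw counts per gene, made with featureCounts 2.0.0 in paired, unstranded mode on the GENCODE M29 annotation, per the file headers; multi-mapping reads were not counted. STAR (no version) and the build GRCm38 or mm10 are named in the submitters' processing notes. GENCODE M29 was made for a later build, so table positions are given as deposited and are not set against the RefSeq promoter positions.

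Gene symbols were found for 52081 of the 55357 gene identifiers. Counts were tested in R 4.3.3 with edgeR 4.0.16 (limma 3.58.1): filterByExpr over the 8 groups left 14985 genes, libraries were scaled by TMM, and one robust quasi-likelihood model over all 24 libraries (16 residual degrees of freedom) gave each contrast. P-values were adjusted by Benjamini-Hochberg over all tested genes, with a threshold of 0.05. The SE is the log2 fold change divided by the root of F. CPM and TPM were computed from the deposited counts, TPM with the exon lengths in the table. The biological coefficient of variation was 6.29%. Replicates differed beyond counting noise (chi-square per gene 3.05 to 8.32 over 24 pairs).

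The members and the gene lists were chosen with earlier results of these data known. Pathway genes were picked from the 2 with the largest change in each direction per list and comparison, among those called and at 1 CPM or more in either group. Every gene of a list of 3 or fewer was also named. Only some of the genes open to naming are given here, often in 1 direction only, so they do not stand for their lists. The genes most like a member were the 2 with the highest Pearson's r of log2 CPM (prior count 2). Of these steps, only the edgeR test of LPS plus dexamethasone against LPS at 24 h was tried on simulated counts. Replicate numbers were not shown to pair the libraries. Alternatives were DESeq2 1.42.0, its size factors, library size alone, other filters, only the groups compared, a replicate block, and each library left out. Plots and promoter searches used Python 3.11.15, pandas 2.3.3 and matplotlib 3.10.9.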

Additional observations from a re-analysis of the deposited data

Results flagged for a closer look

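The differences below are between effects under the same contrast and were called by the interaction test in edgeR (log2 scale, Benjamini-Hochberg over all tested genes). No explanation of them was tested.

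The LPS effect at 24 h minus that at 4 h was −1.59 for Tlr1, −1.67 for Tlr2, 1.49 for Tlr4, −2.06 for Tlr6 and −1.53 for Cd14 at the surface. Among the endosomal receptors it was −2.95 for Tlr3, −1.80 for Tlr7, −1.07 for Tlr8, −2.34 for Tlr9 and 1.67 for Tlr13.

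The effect of dexamethasone alone at 24 h minus that at 4 h was −0.43 for Tlr1, 0.91 for Tlr2, 0.50 for Tlr4, −0.53 for Tlr6, −0.62 for Tlr7, −0.97 for Tlr8, −0.33 for Tlr13 and −0.63 for Cd14. The effect of dexamethasone under LPS at 24 h minus that at 4 h was −0.69 for Tlr1, 0.32 for Tlr2, −0.22 for Tlr6, 0.34 for Tlr7, 1.03 for Tlr9, −0.79 for Tlr13 and −0.39 for Cd14.

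The effect of dexamethasone with LPS minus that without LPS at 24 h was 0.72 for Tlr1, −0.86 for Tlr3, −1.12 for Tlr4, −0.52 for Tlr6, −0.98 for Tlr7, −0.98 for Tlr8, 1.28 for Tlr9 and 0.86 for Tlr13. At 4 h it was 0.98 for Tlr1, 0.68 for Tlr2, −1.24 for Tlr3, −0.81 for Tlr4, −0.83 for Tlr6, −1.94 for Tlr7, −1.83 for Tlr8 and 1.31 for Tlr13.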

How the results depend on the processing

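Of 1860 values for 120 member results under the alternatives, 1780 kept their direction and side of the threshold. Library size alone as the scale changed the most: after LPS it called 2434 genes higher and 9779 lower at 4 h, and 4 members lower at 24 h, and the log2 fold change of Tlr9 at 4 h was −0.68. For dexamethasone under LPS at 4 h it called 5 members higher and 2 lower, and 5974 genes higher and 2365 lower, with Tlr6 at 0.08, Tlr7 at 0.18 and Cd14 at 0.17. For the difference of that effect between 24 h and 4 h it called 1 member higher and 4808 genes lower, for the LPS effect between the times 7692 genes higher and 2573 lower, and for dexamethasone with against without LPS at 4 h 5279 higher and 1566 lower, with Cd14 at 0.09. Without a filter on low counts, 2 members were called higher with dexamethasone under LPS at 4 h.

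Among uncalled results near 0, Tlr7 after 24 h of LPS was 0.01 with DESeq2's size factors and 0.01 with DESeq2. In untreated cells at 24 h over 4 h, Tlr4 was 0.01 with those size factors, 0.01 with DESeq2 and 0.07 with the stricter filter, Tlr3 was 0.01 with the stricter filter, and Tlr2 was −0.02 with library size alone. With single libraries left out, the log2 values lay between −0.07 and 0.10 for Tlr7 and between −0.10 and 0.02 for Tlr8 after 24 h of LPS. They lay between −0.09 and 0.04 for Tlr7 and between 0.00 and 0.08 for Tlr1 with dexamethasone under LPS at 4 h. In untreated cells at 24 h over 4 h they lay between −0.09 and 0.04 for Tlr4, −0.06 and 0.10 for Tlr2, and −0.13 and 0.00 for Tlr3. For Tlr2 under dexamethasone with against without LPS at 24 h they lay between −0.01 and 0.15.

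The replicate block called 7 members higher and 2 lower after 4 h of LPS and changed no member's call in any comparison. The replicate numbers are not shown to pair libraries: deviations of same-numbered libraries correlated at a median of −0.001 over 84 pairs (−0.053 to 0.051), and 7 of 24 libraries correlated best with their own number. The difference in Tlr6 between the times under dexamethasone with LPS (−0.22) was lost in 6 of the 12 fits that left out a library, with adjusted p between 0.0509 and 0.0696. That call was also lost with DESeq2's size factors (adjusted p = 0.105) and with DESeq2 (adjusted p = 0.0911). It was lost as well without a filter on low counts (adjusted p = 0.115) and with the stricter filter (adjusted p = 0.0565). The lowest member count in a library was 205. Calls gained with 1 library left out were the Tlr3 difference between the times under dexamethasone with LPS (0.35) and the Cd14 difference with against without LPS at 4 h (−0.20).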
